A study of Homo sapiens with 12 samples.

Results

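Levels of 39 genes around the actin cytoskeleton were followed in HepG2 cells, which derive from a human liver tumour. Among the genes are targets and members of the YAP pathway, the transcription factor SRF with its coactivators, and proteins that build actin filaments and focal adhesions. They were named by symbol, all 39 were found among the 62475 gene identifiers of the table, and 37 of them were among the 14435 genes with enough counts to be tested. RNA sequencing was done on 12 libraries in 4 groups of 3 biological replicates. The groups were HDAC1_S434A cells with H89, HDAC1_S434A cells without H89, cells with wild-type HDAC1 and H89, and cells with wild-type HDAC1 without H89. HDAC1 is a class I histone deacetylase, S434A replaces one of its serines by alanine, and H89 is an inhibitor of protein kinase A (PKA). All groups share the HepG2 background, and the dose and duration of H89, how the mutant cells were made and how many clones they came from were not given in the sources used here. Groups are called S434A and WT, with or without H89, and replicates of a group are listed in the order 1, 2 and 3.

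YAP (YAP1) and its relative TAZ (WWTR1) are coactivators that the Hippo kinases hold in the cytoplasm by phosphorylation. In the nucleus they join DNA-binding proteins of the TEAD family and turn on genes such as CCN1, CCN2 and ANKRD1. The coactivators MRTFA and MRTFB bind monomeric actin, and when actin polymerizes they enter the nucleus and join SRF, whose targets include actin itself and many of its binding proteins. Both routes respond to cell tension and adhesion, and in liver cells they are known for roles in injury, regeneration and cancer. PKA is known to act on the YAP route through the LATS kinases. Kinase activity cannot be read from gene counts, so changes with H89 are not assigned to PKA here.

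Upstream sequences show where these factors can find their motifs. RefSeq promoters (GRCh38.p14) were matched for 34 of the 39 genes, which have 64 annotated starts among them, and TEAD1, TNS4, MYL9, ACTB and CCN1 had no entry. A CArG box, the 10-base motif of SRF that reads the same on both strands, stood in 9 of the 64 windows of 300 bases around a start (14.1%), in 7 genes, against 452 of all 34796 human windows (1.3%). The TEAD hexamer GGAATG, or CATTCC on the other strand, stood in 19 of the 64 windows (29.7%), in 18 genes, against 4886 of all windows (14%). No CArG box and TEAD hexamer overlapped in these windows. Such a match is a description of the letters and not of binding. The 6 sequences that follow are the 250 bases before a start, 5′ to 3′, with the motif in capitals, and they were chosen because these genes define the module and carry the motif: SRF itself with a pair of CArG boxes at chr6:43171019-43171268 (plus strand), the targets ACTG1 at chr17:81512800-81513049 (minus strand), FLNA at chrX:154374635-154374884 (minus strand) and CNN2 at chr19:1026358-1026607 (plus strand) with a single CArG box each, and the YAP targets CCN2 at chr6:131951373-131951622 (minus strand) and ANKRD1 at chr10:90921088-90921337 (minus strand) with repeated TEAD hexamers.
SRF: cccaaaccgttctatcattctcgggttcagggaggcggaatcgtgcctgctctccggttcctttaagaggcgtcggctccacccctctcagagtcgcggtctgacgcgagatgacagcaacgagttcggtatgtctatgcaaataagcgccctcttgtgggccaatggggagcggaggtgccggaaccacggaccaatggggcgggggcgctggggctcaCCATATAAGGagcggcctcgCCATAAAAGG
ACTG1: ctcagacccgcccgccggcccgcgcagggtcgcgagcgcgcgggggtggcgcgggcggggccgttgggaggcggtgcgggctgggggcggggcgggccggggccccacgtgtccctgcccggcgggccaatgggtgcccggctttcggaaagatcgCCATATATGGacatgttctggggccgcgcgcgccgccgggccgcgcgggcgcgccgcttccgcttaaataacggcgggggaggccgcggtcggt
FLNA: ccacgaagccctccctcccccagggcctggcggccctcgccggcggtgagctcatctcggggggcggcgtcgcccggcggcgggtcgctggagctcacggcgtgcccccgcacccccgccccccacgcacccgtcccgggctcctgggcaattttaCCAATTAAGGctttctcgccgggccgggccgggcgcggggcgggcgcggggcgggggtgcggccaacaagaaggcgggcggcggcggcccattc
CNN2: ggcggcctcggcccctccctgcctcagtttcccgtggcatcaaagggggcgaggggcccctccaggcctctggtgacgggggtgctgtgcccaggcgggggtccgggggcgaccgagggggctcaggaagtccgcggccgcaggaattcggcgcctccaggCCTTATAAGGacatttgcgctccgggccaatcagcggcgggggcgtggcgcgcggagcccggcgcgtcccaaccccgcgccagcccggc
CCN2: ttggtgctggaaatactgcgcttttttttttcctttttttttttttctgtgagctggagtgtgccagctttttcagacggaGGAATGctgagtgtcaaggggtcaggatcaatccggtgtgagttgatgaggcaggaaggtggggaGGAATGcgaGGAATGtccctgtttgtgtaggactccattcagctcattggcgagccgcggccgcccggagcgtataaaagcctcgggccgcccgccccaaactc
ANKRD1: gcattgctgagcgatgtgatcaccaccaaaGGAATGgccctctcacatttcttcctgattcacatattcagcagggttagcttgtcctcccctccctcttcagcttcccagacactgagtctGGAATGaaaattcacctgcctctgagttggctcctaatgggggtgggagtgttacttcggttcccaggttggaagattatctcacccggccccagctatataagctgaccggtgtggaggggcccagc

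Total counts ran from 17562754 to 37187794 per library. Of the counts in S434A, the 39 genes took 0.946, 0.925 and 0.967% with H89 and 1.08, 0.99 and 0.793% without it. Of those in WT they took 1.02, 1 and 0.922% with H89 and 0.447, 0.448 and 0.454% without it. The libraries of S434A without H89 stood apart from one another, with a biological coefficient of variation of 0.351, against 0.0556 in S434A with H89, 0.0775 in WT with H89 and 0.0197 in WT without H89. A point mutation cannot be read from gene counts, so the genotype labels were not checked here. Other shares differed between the groups as well. In S434A the share of mitochondrial mRNAs was 5.94, 5.57 and 5.92% upon H89, against 7.02, 4.09 and 3.16% with no H89. In WT their share was 4.91, 6.26 and 5.63% upon H89, against 1.49, 1.48 and 1.51% with no H89. Ribosomal protein genes took 7.93 to 7.94% of the counts in S434A with H89, 9.51 to 11.5% in S434A without H89, 7.37 to 7.77% in WT with H89 and 19.4 to 20% in WT without H89. The summed level of 10 hepatocyte markers, of which ALB was the largest, was 46025 to 47015 CPM in S434A with H89, 35479 to 56580 CPM in S434A without H89, 45498 to 50191 CPM in WT with H89 and 77183 to 77726 CPM in WT without H89, and all 10 were expressed in every group. They did not all run with the sum: with H89 in WT, 2 of the 10 rose past 2-fold (APOB and HNF4A) and 4 fell past it (AFP, APOA1, APOA2 and FGB), while ALB did not pass. Levels are CPM, counts scaled to library size and by TMM factors, so that a larger share for some genes goes with a smaller share for others. Of markers of other cell types, 8 fibroblast genes summed to 17.8 to 20.5, 24.4 to 39.6, 19.8 to 21 and 18 to 18.6 CPM in the same order of groups, with COL1A2, DCN and THY1 at 0 in all of them and nearly the whole sum from PDGFRB alone. The 5 smooth muscle genes summed to 30.2 to 33.3, 34.6 to 47.3, 34.5 to 35.8 and 24.5 to 26.4 CPM. Most of that sum came from ACTA2, which is also among the further actin-binding and SRF-target genes followed below. The 4 endothelial genes found summed to 3.43 to 5.3, 4.41 to 8.41, 4.39 to 5.62 and 2.63 to 3.07 CPM, with KDR and TEK at 0, and the 5 blood genes to 12 to 13.5, 22.5 to 35.6, 13.3 to 15.4 and 15.1 to 17.4 CPM, with PTPRC, CD3E and HBB at 0 and nearly the whole sum from CD14. The part of these shares in the results was not tested, and in bulk RNA fewer cells of a type and less RNA per cell cannot be told apart.

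In S434A cells without H89, 11 of the 37 genes tested were higher than in WT cells without H89 by more than 2-fold at an adjusted p under 0.05 (edgeR quasi-likelihood test, Benjamini-Hochberg over all 14435 genes), and only ANKRD1 was lower by that rule. These are the thresholds in the series' own design, and such a gene is said below to have risen or fallen past 2-fold. Of all genes tested, 11.6% rose and 11.3% fell past 2-fold in this comparison. The genes that rose were the YAP targets CCN2, AMOTL2, AXL and THBS1, the coactivator MRTFA, the crosslinker FLNA, the myosin MYH9, and the focal adhesion genes TLN1, ZYX, TNS3 and TNS4. At an adjusted p under 0.05 and any fold, 24 of the 37 rose and 6 fell, against 29% and 29.3% of all genes. The median log2 change of the 37 genes was 0.69, against -0.04 over all genes.

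H89 in WT cells went with a rise past 2-fold of 15 of the 37 genes and a fall of ANKRD1, where 22.2% of all genes rose and 15.8% fell. The genes that rose included the pathway's own regulators YAP1, WWTR1, TEAD1, LATS2, MRTFA and MRTFB, with VCL, FLNA, ACTN4, MYH9, MYH10, TLN1, ZYX, CALD1 and TNS3. At any fold, 27 rose and 6 fell, against 38.8% and 30.9% of all genes. The median log2 change was 0.85, against 0.20 over all genes, and with RLE in place of TMM factors these medians were 0.70 and 0.05. This comparison and that of S434A with WT without H89 rest on the same 3 WT libraries without H89, so the values of one are no independent evidence for the other. Likewise the H89 effect in S434A shares the S434A libraries without H89 with the genotype comparison without H89.

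In S434A cells, H89 raised TEAD1, YAP1, MRTFB and CALD1 past 2-fold and lowered CCN1 and TNS4. Over all genes 15.2% rose and 2.35% fell past 2-fold. At any fold 11 of the 37 genes rose and 10 fell, against 29.3% and 22.7% of all genes, and the median log2 change of the 37 was -0.01, against 0.01 over all genes. Between S434A and WT cells that both had H89, none of the 37 genes passed, as none of the 14435 genes did (0% higher and 0% lower), and their log2 differences lay between -0.29 and 0.22 with standard errors of 0.07 to 0.46. At an unadjusted p under 0.05, 2 of the 37 (LATS2 and TPM1) and 589 of all genes differed by edgeR. DESeq2 and limma-voom also gave these 2 genes, where 538 and 627 of all 14435 genes differed. Limma-voom with quality weights gave 11, where 1827 of all genes differed. None of the 37 passed after adjustment by any of these, while over all genes DESeq2 passed 2, limma-voom 0 and the weighted fit 3.

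The H89 effect was then compared between the genotypes, as the effect in S434A minus that in WT. This difference was negative past 2-fold for 16 of the 37 genes and positive for ANKRD1 alone, where 12.4% of all genes were negative and 11.7% positive. At any fold it was negative for 24 and positive for 5 genes, against 24% and 24% of all genes. Its median was -0.84, against 0.07 over all genes. By its make-up it equals the difference of S434A from WT with H89 minus that without H89. As the first of these lay between -0.29 and 0.22, it largely repeats the second with its sign turned. It is therefore no separate evidence.

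**Figure D1:**
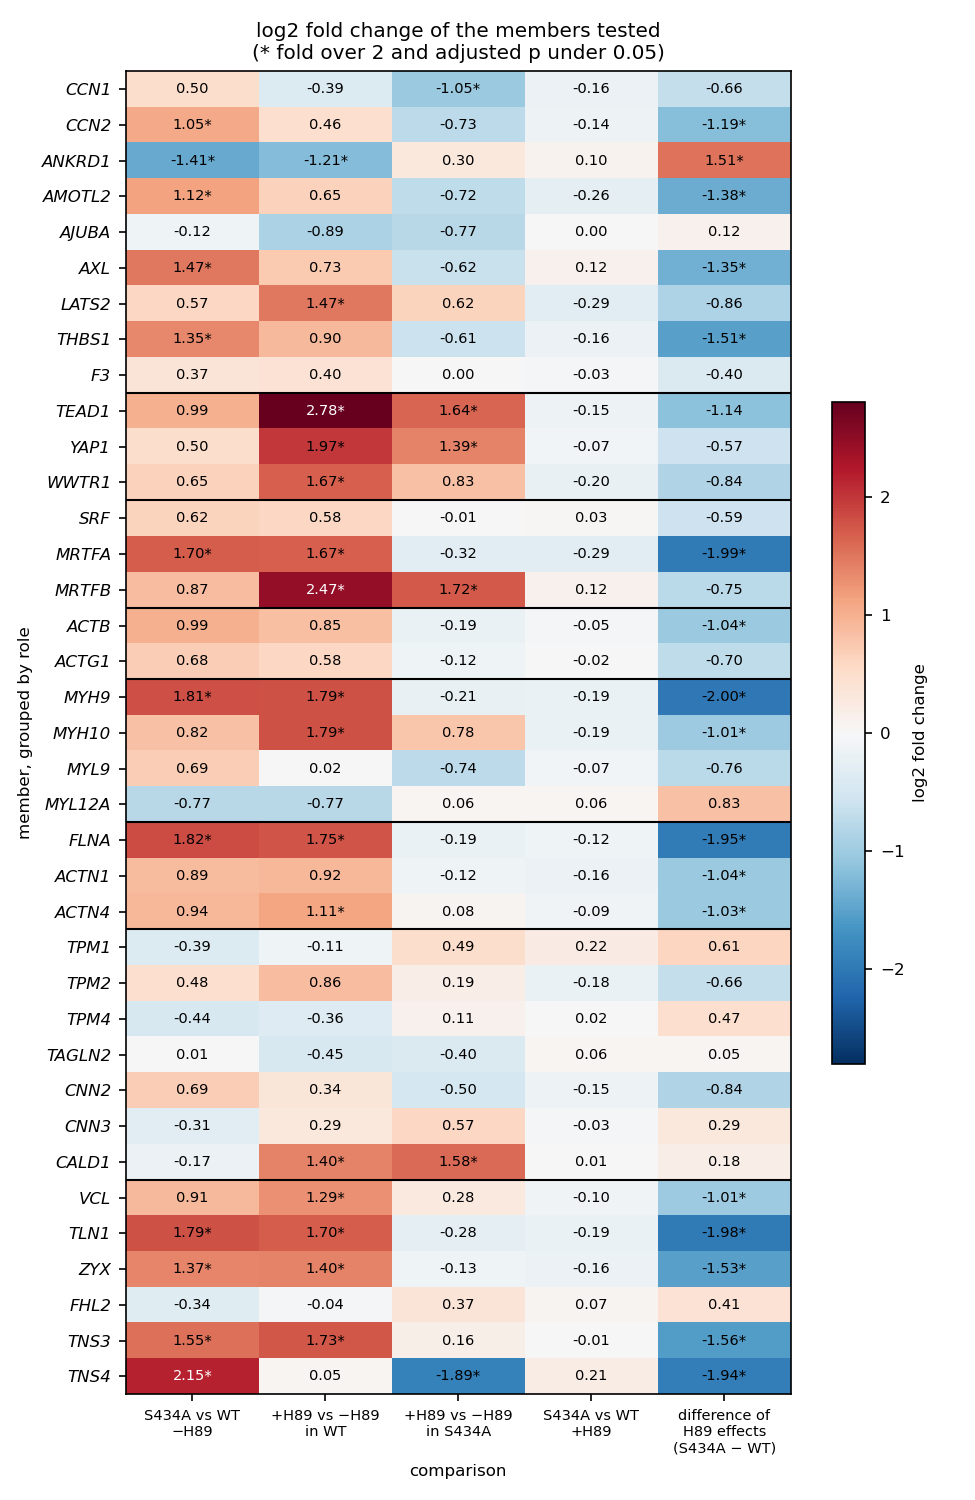
Log2 fold change of the 37 genes tested (rows, grouped by role) in the 5 comparisons (columns). Red is higher and blue lower in the group named first, and an asterisk marks a fold over 2 at an adjusted p under 0.05; the column of S434A against WT with H89 has none, and ANKRD1 is the only gene with an asterisk on a blue field in the columns of S434A against WT without H89 and of H89 in WT.

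Among the YAP targets, CCN1 and CCN2 code for secreted matricellular proteins. CCN2 (ENSG00000118523.6_6, hg19 chromosome 6, 132269316 to 132272512, minus strand) had 286, 231 and 216 CPM in S434A with H89 and 473, 408 and 335 CPM in S434A without H89. In WT, CCN2 had 267, 281 and 262 CPM with H89 and 197, 193 and 198 CPM without H89. All libraries of S434A without H89 lay above every other library, and those of WT without H89 lay below all the rest. CCN2 was 1.05 ± 0.13 (adjusted p = 3.61e-05) on the log2 scale in S434A against WT without H89 (standard errors follow the ± sign), 0.46 ± 0.12 (adjusted p = 0.00649) in WT upon H89 and -0.73 ± 0.12 (adjusted p = 0.00123) in S434A upon H89. Without S434A replicate 1 the first of these was 0.92, under 2-fold but still past the adjusted p, and without any 1 of the WT replicates with H89 the second was 0.28 to 0.34 and no longer passed. CCN1 (ENSG00000142871.18_6, hg19 chromosome 1, 86046444 to 86050272, plus strand) had 19.8, 20.1 and 13.9 CPM in S434A with H89 and 39.9, 37.4 and 34.2 CPM in S434A without H89. In WT, CCN1 had 21.7, 17.6 and 20.8 CPM with H89 and 25.6, 27.8 and 25.6 CPM without H89. Its highest group was again S434A without H89, but here the libraries with H89 of both genotypes were the lowest and overlapped. CCN1 fell with H89 in both genotypes, with log2 changes of -1.05 ± 0.14 (adjusted p = 0.000308) in S434A and -0.39 ± 0.14 (adjusted p = 0.0275) in WT, the second of which no longer passed without WT replicate 2 without H89 (adjusted p = 0.0826).

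ANKRD1, a muscle-type ankyrin repeat protein and a standard YAP readout, went the other way from CCN2. ANKRD1 (ENSG00000148677.7_4, hg19 chromosome 10, 92671853 to 92680844, minus strand) had 8.41, 12 and 9.95 CPM in S434A with H89 and 3.82, 8.03 and 12.8 CPM in S434A without H89. In WT, ANKRD1 had 9.5, 6.92 and 11.9 CPM with H89 and 21.5, 21.5 and 22.5 CPM without H89. The 3 libraries of WT without H89 lay above all 9 others, and the S434A libraries without H89 spread most. The log2 change was -1.41 ± 0.35 (adjusted p = 0.00531) in S434A against WT without H89, -1.21 ± 0.35 (adjusted p = 0.00944) in WT upon H89 and 0.30 ± 0.35 (adjusted p = 0.494) in S434A upon H89.

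THBS1 codes for thrombospondin 1, another secreted matricellular protein. It had 43.4, 40 and 36.9 CPM in S434A with H89 and 55.2, 66.5 and 62.3 CPM in S434A without H89. In WT, THBS1 had 47, 40.7 and 46.9 CPM with H89 and 24.4, 22.5 and 25.5 CPM without H89. The S434A libraries without H89 were above all others, the groups with H89 overlapped, and WT without H89 was lowest. The change of THBS1 in S434A against WT without H89, 1.35 ± 0.10 (adjusted p = 1.35e-06), had the smallest adjusted p of the 37 genes in that comparison, and H89 moved it by 0.90 ± 0.10 (adjusted p = 1.2e-05) in WT and by -0.61 ± 0.10 (adjusted p = 0.000817) in S434A. AXL, a receptor tyrosine kinase, also had its highest libraries in S434A without H89 and its lowest in WT without H89. It had 4.64, 5.43 and 5.44 CPM in S434A with H89 and 9.46, 8.53 and 5.92 CPM in S434A without H89. In WT, AXL had 4.34, 4.93 and 4.99 CPM with H89 and 2.79, 3.12 and 2.7 CPM without H89. AXL was 1.47 ± 0.17 (adjusted p = 2.99e-05) in S434A against WT without H89, 0.73 ± 0.17 (adjusted p = 0.00306) in WT upon H89 and -0.62 ± 0.17 (adjusted p = 0.0107) in S434A upon H89.

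AMOTL2, an angiomotin family protein that binds YAP, had 10.6, 10.2 and 10.5 CPM in S434A with H89 and 19.8, 17.9 and 13.9 CPM in S434A without H89. In WT, AMOTL2 had 13.9, 11.4 and 12.1 CPM with H89 and 7.42, 8.36 and 8.07 CPM without H89. WT without H89 was below all other libraries. AMOTL2 was 1.12 ± 0.14 (adjusted p = 4.25e-05) in S434A against WT without H89, 0.65 ± 0.14 (adjusted p = 0.00138) in WT upon H89 and -0.72 ± 0.14 (adjusted p = 0.00195) in S434A upon H89. LATS2 is both a YAP target and the kinase that restrains YAP. It had 39.1, 43.5 and 34 CPM in S434A with H89 and 22.2, 26.8 and 27.1 CPM in S434A without H89. In WT, LATS2 had 49.4, 45.4 and 48.2 CPM with H89 and 17.6, 16.6 and 17.2 CPM without H89. No 2 groups of LATS2 overlapped, and both groups with H89 lay above both without. LATS2 rose by 1.47 ± 0.11 (adjusted p = 4.33e-07) with H89 in WT and by 0.62 ± 0.11 (adjusted p = 0.00125) in S434A, and by 0.57 ± 0.11 (adjusted p = 0.000842) in S434A against WT without H89.

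AJUBA, a LIM protein that inhibits LATS, and F3, tissue factor, complete the YAP targets tested. AJUBA had means of 138 CPM in S434A with H89 and 139 CPM in WT with H89, and of 236 CPM in S434A and 257 CPM in WT without it. AJUBA fell with H89 in both genotypes, with log2 changes of -0.77 ± 0.09 (adjusted p = 0.000114) in S434A and -0.89 ± 0.09 (adjusted p = 4.92e-06) in WT, and without WT replicate 1 or 3 with H89 the change in WT was -1.05 or -1.08, past 2-fold. F3 ranged from 3.9 to 6.12 CPM over all libraries and rose by 0.40 ± 0.15 (adjusted p = 0.036) with H89 in WT, a call that ended without any 1 library of either WT group (log2 changes of 0.16 to 0.44). AMOTL1 had at most 8 counts in any library and was not tested.

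**Figure D2:**
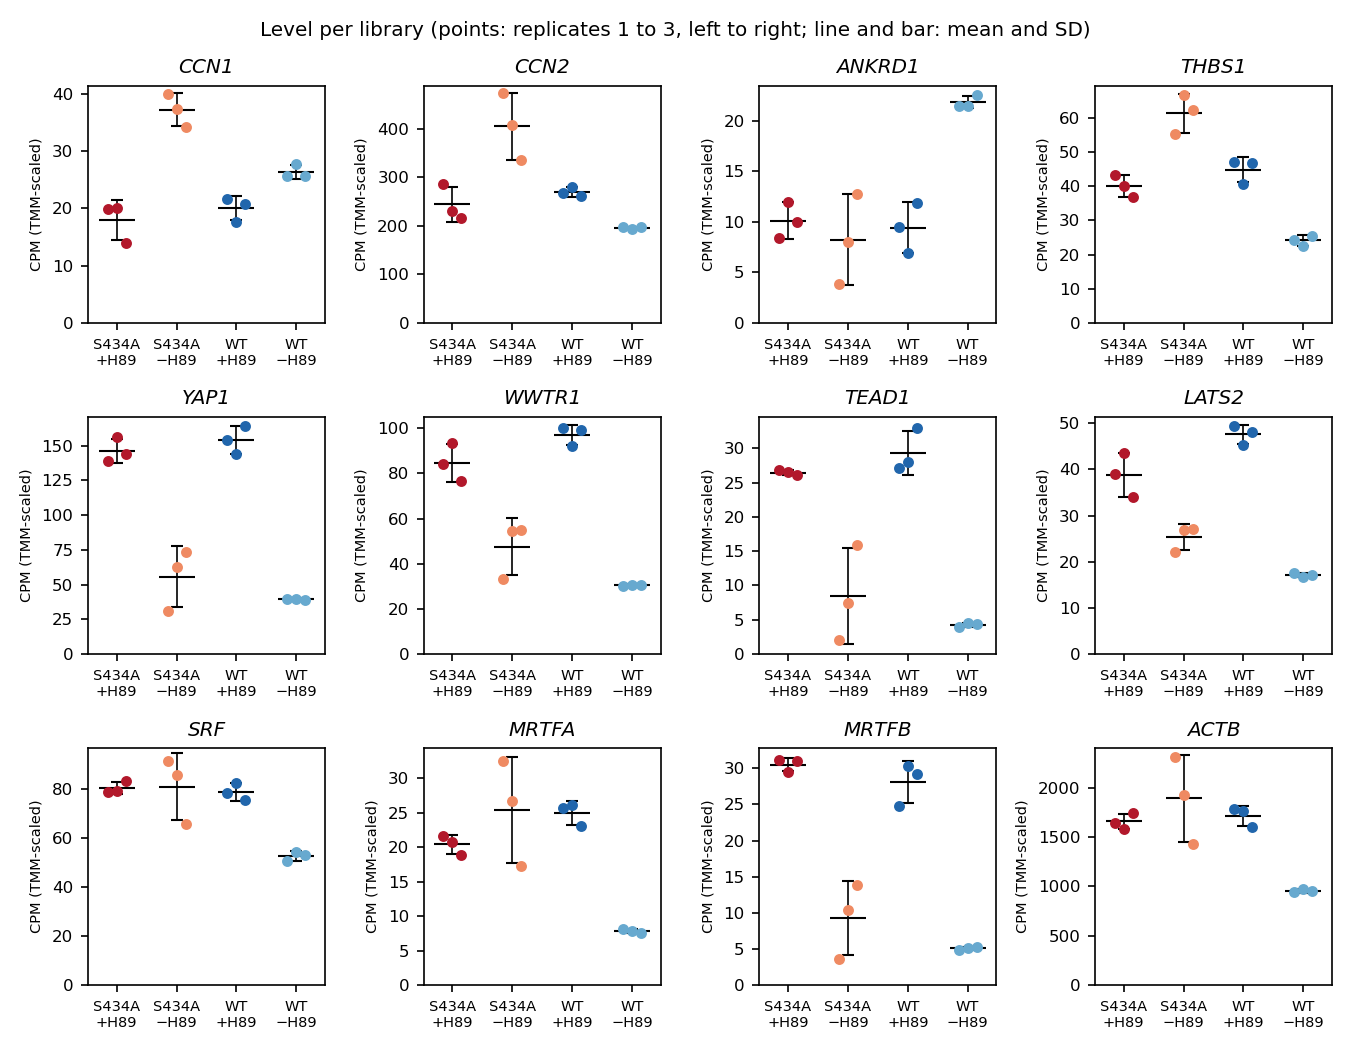
Level in CPM (vertical axes, from 0) of 12 genes in each library, for S434A with and without H89 and WT with and without H89. Points are replicates 1, 2 and 3 from left to right, and lines and bars are the mean and SD; YAP1, WWTR1, TEAD1 and MRTFB are high in both groups with H89, whereas CCN1, CCN2 and THBS1 are highest in S434A without H89.

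YAP1, WWTR1 and TEAD1 themselves were all higher with H89 in both genotypes, except that WWTR1 in S434A was -0.13 (adjusted p = 0.384) with the trends on GC content and length removed. YAP1 (ENSG00000137693.14_7, hg19 chromosome 11, 101981178 to 102104155, plus strand) had 139, 156 and 144 CPM in S434A with H89 and 30.9, 62.7 and 73.6 CPM in S434A without H89. In WT, YAP1 had 154, 144 and 164 CPM with H89 and 39.8, 39.7 and 38.6 CPM without H89. All 6 libraries with H89 lay above all 6 without it, and the libraries of WT without H89 fell inside the spread of S434A without H89. H89 raised YAP1 by 1.97 ± 0.24 (adjusted p = 3.3e-05) in WT and by 1.39 ± 0.24 (adjusted p = 0.00131) in S434A, and the difference between these effects was -0.57 ± 0.33 (adjusted p = 0.182). Between S434A and WT without H89 it was 0.50 ± 0.24 (adjusted p = 0.0914), and without S434A replicate 1, the lowest library of YAP1, it was 0.79 (adjusted p = 1.72e-06).

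WWTR1 (ENSG00000018408.15_6, hg19 chromosome 3, 149235022 to 149454501, minus strand) had 84.4, 93.3 and 76.6 CPM in S434A with H89 and 33.3, 54.6 and 55 CPM in S434A without H89. In WT, WWTR1 had 100, 92.1 and 99.2 CPM with H89 and 30.1, 30.8 and 30.5 CPM without H89. Again every library with H89 was above every library without it, and here S434A without H89 was also above WT without H89. WWTR1 rose by 1.67 ± 0.16 (adjusted p = 4.55e-06) with H89 in WT, by 0.83 ± 0.16 (adjusted p = 0.00228) with H89 in S434A and by 0.65 ± 0.16 (adjusted p = 0.00509) in S434A against WT without H89. TEAD1 (ENSG00000187079.19_8, hg19 chromosome 11, 12695968 to 12966284, plus strand), which gives YAP and TAZ their contact with DNA, had 26.8, 26.5 and 26.1 CPM in S434A with H89 and 2.04, 7.42 and 15.9 CPM in S434A without H89. In WT, TEAD1 had 27.1, 28 and 33 CPM with H89 and 3.95, 4.46 and 4.4 CPM without H89. The separation by H89 was complete, but S434A replicate 1 without H89 was below all WT libraries without H89 and replicate 3 far above them. TEAD1 had the largest H89 effect of the 37 genes in WT, 2.78 ± 0.51 (adjusted p = 0.000597), and in S434A it was 1.64 ± 0.49 (adjusted p = 0.0175). That call in S434A ended, at adjusted p values of 0.0507 to 0.0722, without any 1 replicate with H89 or without replicate 2 of those without H89, and the change was 2.48 without replicate 3. TEAD1 was 0.99 ± 0.50 (adjusted p = 0.114) in S434A against WT without H89, and without S434A replicate 1 it was 1.46 (adjusted p = 6.54e-05).

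SRF, MRTFA and MRTFB differed in where their high libraries lay. SRF (ENSG00000112658.8_5, hg19 chromosome 6, 43139007 to 43149244, plus strand) had 78.5, 79 and 82.9 CPM in S434A with H89 and 91.4, 85.4 and 65.5 CPM in S434A without H89. In WT, SRF had 78.3, 82.4 and 75.2 CPM with H89 and 50.4, 54.1 and 53.1 CPM without H89. WT without H89 was below all other libraries, and the other groups overlapped. SRF rose by 0.62 ± 0.11 (adjusted p = 0.000423) in S434A against WT without H89 and by 0.58 ± 0.11 (adjusted p = 0.000513) with H89 in WT, and in S434A the H89 effect was -0.01 ± 0.11 (adjusted p = 0.937). MRTFA (ENSG00000196588.19_10, hg19 chromosome 22, 40806285 to 41032723, minus strand) also had its lowest libraries in WT without H89, with wider steps. It had 21.6, 20.7 and 18.9 CPM in S434A with H89 and 32.4, 26.6 and 17.2 CPM in S434A without H89. In WT, MRTFA had 25.7, 26.1 and 23 CPM with H89 and 8.15, 7.84 and 7.51 CPM without H89. MRTFA rose by 1.70 ± 0.19 (adjusted p = 2.24e-05) in S434A against WT without H89 and by 1.67 ± 0.19 (adjusted p = 1.47e-05) with H89 in WT, and the H89 effect in S434A was -0.32 ± 0.18 (adjusted p = 0.165).

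MRTFB (ENSG00000186260.17_6, hg19 chromosome 16, 14165176 to 14360630, plus strand) resembled TEAD1 instead. It had 31.1, 29.5 and 31 CPM in S434A with H89 and 3.66, 10.4 and 13.8 CPM in S434A without H89. In WT, MRTFB had 24.8, 30.3 and 29.2 CPM with H89 and 4.85, 5.11 and 5.29 CPM without H89. All libraries with H89 were above all without it, and the S434A libraries without H89 lay on both sides of those of WT. MRTFB rose by 2.47 ± 0.35 (adjusted p = 0.000102) with H89 in WT and by 1.72 ± 0.34 (adjusted p = 0.00287) in S434A. In S434A against WT without H89 it was 0.87 ± 0.35 (adjusted p = 0.0517), and 1.26 (adjusted p = 1.9e-06) without S434A replicate 1.

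The cytoplasmic actins were the most abundant transcripts of the module per length, with mean levels per kilobase of 790 CPM for ACTG1 and 377 CPM for ACTB in S434A with H89, and of 537 and 217 CPM in WT without H89. ACTB (ENSG00000075624.17_9, hg19 chromosome 7, 5566040 to 5603533, minus strand) had 1649, 1588 and 1743 CPM in S434A with H89 and 2315, 1932 and 1433 CPM in S434A without H89. In WT, ACTB had 1786, 1771 and 1603 CPM with H89 and 939, 971 and 953 CPM without H89. ACTG1 (ENSG00000184009.12_10, hg19 chromosome 17, 79476997 to 79490873, minus strand) had 2254, 2265 and 2399 CPM in S434A with H89 and 2888, 2608 and 2035 CPM in S434A without H89. For both actins the lowest libraries were those of WT without H89, and the other groups overlapped. In WT, ACTG1 had 2421, 2388 and 2214 CPM with H89 and 1569, 1573 and 1564 CPM without H89. ACTB rose by 0.99 ± 0.14 (adjusted p = 8.95e-05) in S434A against WT without H89 and by 0.85 ± 0.13 (adjusted p = 0.000194) with H89 in WT, and its H89 effect in S434A was -0.19 ± 0.13 (adjusted p = 0.254). Without S434A replicate 3 the first of these was 1.15, past 2-fold. ACTG1 rose by 0.68 ± 0.10 (adjusted p = 0.000194) and 0.58 ± 0.10 (adjusted p = 0.000465) in the same comparisons, with -0.12 ± 0.10 (adjusted p = 0.338) for H89 in S434A. The actins have near-identical relatives and pseudogenes, so their counts are uncertain.

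Non-muscle myosin II heavy chains split into a pair of patterns. MYH9 (ENSG00000100345.22_6, hg19 chromosome 22, 36677326 to 36784012, minus strand) had 616, 582 and 597 CPM in S434A with H89 and 894, 723 and 461 CPM in S434A without H89. In WT, MYH9 had 719, 704 and 626 CPM with H89 and 197, 195 and 199 CPM without H89. It was lowest in WT without H89, and the S434A libraries without H89 spread across all those with H89. MYH9 rose by 1.81 ± 0.19 (adjusted p = 1.52e-05) in S434A against WT without H89 and by 1.79 ± 0.19 (adjusted p = 8.96e-06) with H89 in WT, with -0.21 ± 0.18 (adjusted p = 0.346) for H89 in S434A. MYH10 had 218, 215 and 217 CPM in S434A with H89 and 76.9, 140 and 162 CPM in S434A without H89. In WT, MYH10 had 246, 245 and 248 CPM with H89 and 68.2, 75.5 and 70.4 CPM without H89. The libraries with H89 were all above those without it, as for YAP1. MYH10 rose by 1.79 ± 0.21 (adjusted p = 2.15e-05) with H89 in WT and by 0.78 ± 0.20 (adjusted p = 0.01) in S434A, the second of which no longer passed without S434A replicate 2 or 3 with H89. In S434A against WT without H89 it rose by 0.82 ± 0.20 (adjusted p = 0.00507), or by 1.08, past 2-fold, without S434A replicate 1. Of the light chains, MYL9 rose by 0.69 ± 0.14 (adjusted p = 0.00125) in S434A against WT without H89, and MYL12A fell there and with H89 in WT, with log2 changes of -0.77 ± 0.14 (adjusted p = 0.000607) and -0.77 ± 0.14 (adjusted p = 0.000482).

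The crosslinkers FLNA, ACTN1 and ACTN4 tie actin filaments into networks and bundles. FLNA (ENSG00000196924.18_9, hg19 chromosome X, 153576892 to 153603006, minus strand) had 672, 665 and 658 CPM in S434A with H89 and 990, 802 and 491 CPM in S434A without H89. In WT, FLNA had 753, 753 and 663 CPM with H89 and 213, 213 and 218 CPM without H89. FLNA was lowest in WT without H89 and was spread over a wide range in S434A without H89, with replicate 1 highest and replicate 3 below all libraries with H89. FLNA rose by 1.82 ± 0.20 (adjusted p = 2.03e-05) in S434A against WT without H89 and by 1.75 ± 0.19 (adjusted p = 1.57e-05) with H89 in WT, with -0.19 ± 0.19 (adjusted p = 0.409) for H89 in S434A. ACTN4 had 535, 512 and 512 CPM in S434A with H89 and 559, 509 and 403 CPM in S434A without H89. In WT, ACTN4 had 573, 561 and 529 CPM with H89 and 257, 253 and 258 CPM without H89. WT without H89 was again the only group apart. ACTN4 rose by 1.11 ± 0.10 (adjusted p = 1.99e-06) with H89 in WT, and by 0.93 or 0.95 without WT replicate 1 or 2 with H89. Leaving out any 1 of the 3 WT replicates with H89 ended its call past 2-fold. In S434A against WT without H89, ACTN4 rose by 0.94 ± 0.10 (adjusted p = 1.43e-05) and ACTN1 by 0.89 ± 0.11 (adjusted p = 5.21e-05), and both passed 2-fold (1.06 and 1.02) without S434A replicate 3. FLNC had at most 3 counts in any library and was not tested.

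Of 7 genes that coat or bind actin filaments, namely tropomyosins, calponins, TAGLN2 and CALD1, none passed 2-fold in S434A against WT without H89, and CALD1 alone passed with H89 in WT and in S434A. CALD1, caldesmon, had 77.9, 94.5 and 95.2 CPM in S434A with H89 and 13, 36.8 and 39.9 CPM in S434A without H89. In WT, CALD1 had 80.3, 80.8 and 105 CPM with H89 and 31.2, 33.5 and 36 CPM without H89. The libraries with H89 lay above all those without it. CALD1 rose by 1.40 ± 0.32 (adjusted p = 0.00254) with H89 in WT and by 1.58 ± 0.32 (adjusted p = 0.00324) in S434A, and it was -0.17 ± 0.32 (adjusted p = 0.68) in S434A against WT without H89. TPM4 fell, with log2 changes of -0.44 ± 0.07 (adjusted p = 0.000274) in S434A against WT without H89 and -0.36 ± 0.07 (adjusted p = 0.000905) with H89 in WT. TPM1 and CNN3 fell in the genotype comparison without H89, at -0.39 ± 0.09 (adjusted p = 0.00266) and -0.31 ± 0.11 (adjusted p = 0.0354), the CNN3 call ending without any 1 library of either group except S434A replicate 3. CNN2 rose by 0.69 ± 0.12 (adjusted p = 0.000419) and TPM2 by 0.48 ± 0.13 (adjusted p = 0.00961) there, the TPM2 call ending without S434A replicate 1, and TAGLN2 was 0.01 ± 0.11 (adjusted p = 0.938). With H89 in WT, CNN2 (0.34 ± 0.12 (adjusted p = 0.0233)) and CNN3 (0.29 ± 0.11 (adjusted p = 0.0438)) no longer passed without any 1 library of either WT group. Tropomyosin genes and MYL12A have close relatives, and 24.1% of the exon bases of TPM1 are shared with other annotated genes, so their counts are uncertain.

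Focal adhesion genes link the filaments to integrins. TLN1, talin, had 282, 273 and 273 CPM in S434A with H89 and 433, 344 and 226 CPM in S434A without H89. In WT, TLN1 had 324, 321 and 298 CPM with H89 and 96.2, 97.6 and 96.5 CPM without H89. ZYX, zyxin, which senses strained filaments, had 66.7, 66.5 and 66.9 CPM in S434A with H89 and 91.3, 76.1 and 52.1 CPM in S434A without H89. Both had their lowest libraries in WT without H89 and a spread in S434A without H89 that took in all libraries with H89. In WT, ZYX had 76.1, 76.2 and 71.5 CPM with H89 and 29.5, 27.2 and 28.2 CPM without H89. TLN1 rose by 1.79 ± 0.18 (adjusted p = 1.29e-05) in S434A against WT without H89 and by 1.70 ± 0.18 (adjusted p = 9.9e-06) with H89 in WT, with -0.28 ± 0.17 (adjusted p = 0.204) for H89 in S434A. ZYX rose by 1.37 ± 0.16 (adjusted p = 2.67e-05) and by 1.40 ± 0.16 (adjusted p = 1.35e-05) in the first pair of comparisons, with -0.13 ± 0.15 (adjusted p = 0.481) for H89 in S434A. VCL, vinculin, binds talin and actin. It had 65.1, 69.2 and 66.6 CPM in S434A with H89 and 58.4, 57.6 and 49.8 CPM in S434A without H89. In WT, VCL had 71.3, 71.5 and 72.4 CPM with H89 and 27.9, 29.4 and 30.8 CPM without H89. All 4 groups of VCL were apart from one another. VCL rose by 1.29 ± 0.07 (adjusted p = 6.93e-08) with H89 in WT, by 0.28 ± 0.07 (adjusted p = 0.0101) with H89 in S434A and by 0.91 ± 0.07 (adjusted p = 2.58e-06) in S434A against WT without H89. The effect in S434A no longer passed without any 1 S434A replicate with H89 or without replicate 2 of those without it (log2 changes of 0.13 to 0.18).

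The tensins TNS3 and TNS4 join integrins to actin. TNS3 had 199, 201 and 205 CPM in S434A with H89 and 210, 199 and 133 CPM in S434A without H89. In WT, TNS3 had 212, 206 and 193 CPM with H89 and 59.3, 63 and 62.1 CPM without H89. WT without H89 was lowest, and the other groups overlapped. TNS3 rose by 1.55 ± 0.14 (adjusted p = 4.71e-06) in S434A against WT without H89 and by 1.73 ± 0.14 (adjusted p = 9.53e-07) with H89 in WT, with 0.16 ± 0.13 (adjusted p = 0.333) for H89 in S434A. TNS4 had 0.35, 0.742 and 0.725 CPM in S434A with H89 and 2.8, 2.6 and 1.4 CPM in S434A without H89. In WT, TNS4 had 0.411, 0.759 and 0.377 CPM with H89 and 0.578, 0.519 and 0.407 CPM without H89. Only S434A without H89 stood apart for TNS4, at a low level. TNS4 rose by 2.15 ± 0.34 (adjusted p = 0.000256) in S434A against WT without H89 and fell with H89 in S434A, with a log2 change of -1.89 ± 0.34 (adjusted p = 0.00161), and it was 0.05 ± 0.43 (adjusted p = 0.921) for H89 in WT. FHL2, a LIM-only coactivator, fell in S434A against WT without H89, at -0.34 ± 0.09 (adjusted p = 0.00671), and rose by 0.37 ± 0.09 (adjusted p = 0.00646) with H89 in S434A, a call that ended without S434A replicate 2 or 3 with H89 or replicate 2 without it.

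WT without H89 had the lowest mean for 26 of the 37 genes, S434A without H89 for 7, S434A with H89 for 3 and WT with H89 for 1. The highest mean was in S434A without H89 for 16, in WT with H89 for 13, in WT without H89 for 4 (ANKRD1, AJUBA, MYL12A and TPM4) and in S434A with H89 for 4 (TPM1, MRTFB, FHL2 and CALD1). The same ranking was not made over all genes, so these counts are not read as particular to the 37. Exon bases shared with another annotated gene came to 14.2% for ACTN4, 11.1% for VCL and 10.1% for YAP1, and strand was not stated in the counting, so reads there may be lost or belong to the neighbour. The median coefficient of variation among replicates of the 37 genes in S434A was 4.71% with H89 and 19% without it, and in WT it was 6.21% with H89 and 2.93% without it.

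The spread in S434A without H89 followed the base composition of the genes. The ratio of replicate 1 to replicate 3 ran from 0.129 for TEAD1, whose longest transcript is 41.3% GC, to 2.02 for FLNA, at 62.2% GC, and its rank correlation with GC content across the 37 genes was 0.84. Without replicate 3 the H89 effect in S434A was -0.43 for FLNA, -0.44 for MYH9 and -0.49 for TLN1, all past the adjusted p (0.00121, 0.0013 and 0.000531), while none of them passed with all libraries. With the trends on GC content and length removed from all libraries, they had the opposite sign, at 0.30, 0.27 and 0.18. The median over all genes for H89 in S434A was then 0.23, against 0.01 without the correction. These 3 values thus lay near the middle of all genes and are not read as a rise against them. Across the 37 genes, which share their libraries and are not replicates, the log2 change also had a rank correlation with GC content of 0.54 in S434A against WT without H89, of 0.01 with H89 in WT cells and of -0.62 with H89 in S434A cells. Its rank correlation with gene length was 0.27, 0.57 and 0.37 in the same comparisons. Over all genes, a smooth fit on GC content and length took up 38.7% of the variance between S434A and WT without H89, 24.9% of that between WT with and without H89, 52.6% of that between S434A with and without H89, and 3.44% of that between S434A and WT with H89.

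**Figure D3:**
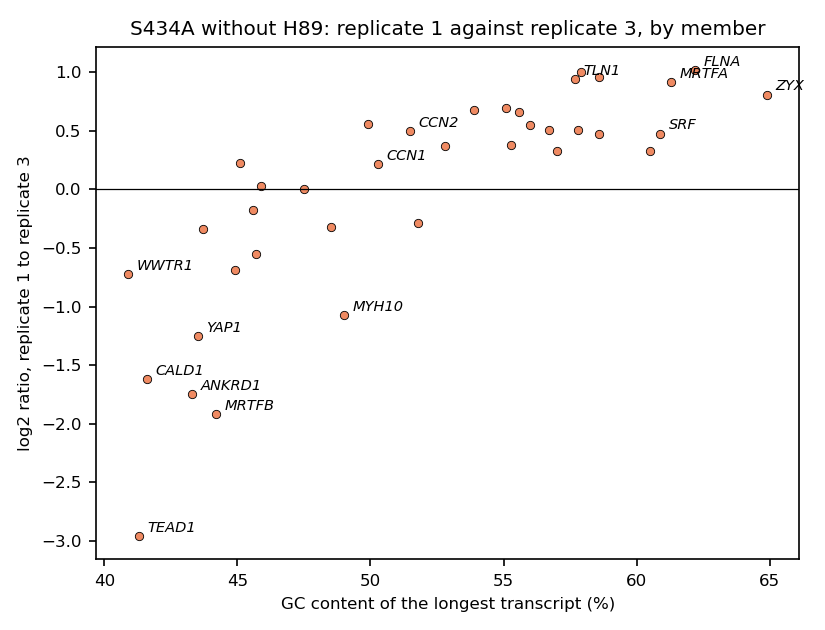
Log2 ratio of replicate 1 to replicate 3 of S434A without H89 (vertical axis) against the GC content of the longest transcript in percent (horizontal axis), 1 point per gene for the 37 genes tested. TEAD1, MRTFB, CALD1 and YAP1 at low GC lie below 0, and FLNA, MRTFA and ZYX at high GC lie above it.

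The tests were therefore repeated with the smooth trends of every library on GC content and on length taken out. In S434A against WT without H89, 4 of the 37 genes then rose past 2-fold, where 3.66% of all genes did, and TPM4 fell, where 7.6% did. The 4 were CCN2 at 1.19, AXL at 1.03, THBS1 at 1.11 and TNS4 at 1.53. FLNA was then 0.54, MYH9 0.78, TLN1 0.77, MRTFA 0.62, ZYX 0.67, TNS3 0.61 and AMOTL2 0.42, all still past the adjusted p but under 2-fold, and ANKRD1 was -0.70. The rises of ACTN4 (0.16, adjusted p = 0.172), MYH10 (0.40, adjusted p = 0.228), LATS2 (0.23, adjusted p = 0.288) and TPM2 (0.33, adjusted p = 0.0626) no longer passed. Neither did SRF and CNN3, which changed their sign, to -0.03 and 0.05. Genes that had not passed before but passed here were YAP1 (0.61, adjusted p = 0.00382) and TEAD1 (0.96, adjusted p = 0.01). So did F3 (0.92, adjusted p = 0.000142) and, as a fall, AJUBA (-0.58, adjusted p = 0.00011). The median of the 37 genes was 0.47, against -0.03 over all genes.

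For H89 in WT, 13 genes rose past 2-fold with the trends removed, where 17.2% of all genes did, and TPM4 fell, where 12.1% did. TEAD1 was then 1.92, YAP1 1.71, LATS2 1.46, MRTFB 1.45, MYH10 1.40 and CCN2 1.16. VCL, FLNA, ACTN4 and CALD1 came under 2-fold, at 0.65, 0.86, 0.79 and 0.60, and ANKRD1, at -0.38, no longer passed, nor did CCN1 (0.01) and TAGLN2 (0.18). TPM1, which had not passed before, was -0.95 (adjusted p = 9.84e-07). The median of the 37 genes was 0.79, against 0.19 over all genes. For H89 in S434A, YAP1 at 1.02 and MRTFB at 1.09 rose past 2-fold, where 5.9% of all genes did, and TNS4 at -1.31 fell, where 1.97% did, with a median of 0.23 both for the 37 genes and over all genes. TEAD1 (0.79), CALD1 (0.72) and CCN1 (-0.66) came under 2-fold. The falls of CCN2 (-0.19, adjusted p = 0.104), AMOTL2 (-0.22, adjusted p = 0.13), AXL (-0.15, adjusted p = 0.375) and MYL9 (-0.12, adjusted p = 0.548) no longer passed, and neither did the changes of WWTR1 (-0.13), VCL (-0.12), TPM1 (0.13), TAGLN2 (0.23) and CNN2 (0.05). FLNA (0.30), ACTB (0.33), ACTG1 (0.48) and SRF (0.56) changed sign and then passed, at adjusted p values of 0.0062, 0.00264, 0.000585 and 0.000866. MYH9 (0.27), TLN1 (0.18) and ZYX (0.46) did likewise, at 0.0089, 0.0438 and 0.000721. The median over all genes was 0.01 without the correction and 0.23 with it, so values near 0.23 are not read as a rise against other genes. ACTN4 (0.60), TNS3 (0.53) and TPM2 (0.76) also passed here but not before. At any fold 18 genes then rose and 4 fell, against 11 and 10 without the correction. The shares of all genes were not worked out for that rule. In S434A against WT with H89 no gene passed with the trends removed (0% of all genes). The difference of H89 effects was then negative past 2-fold for WWTR1 at -1.13, CCN2 at -1.36, TEAD1 at -1.12, THBS1 at -1.25 and TNS4 at -1.27, where 4.16% of all genes were negative, and positive for TPM1 and TPM4, where 8.81% were positive.

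**Figure D4:**
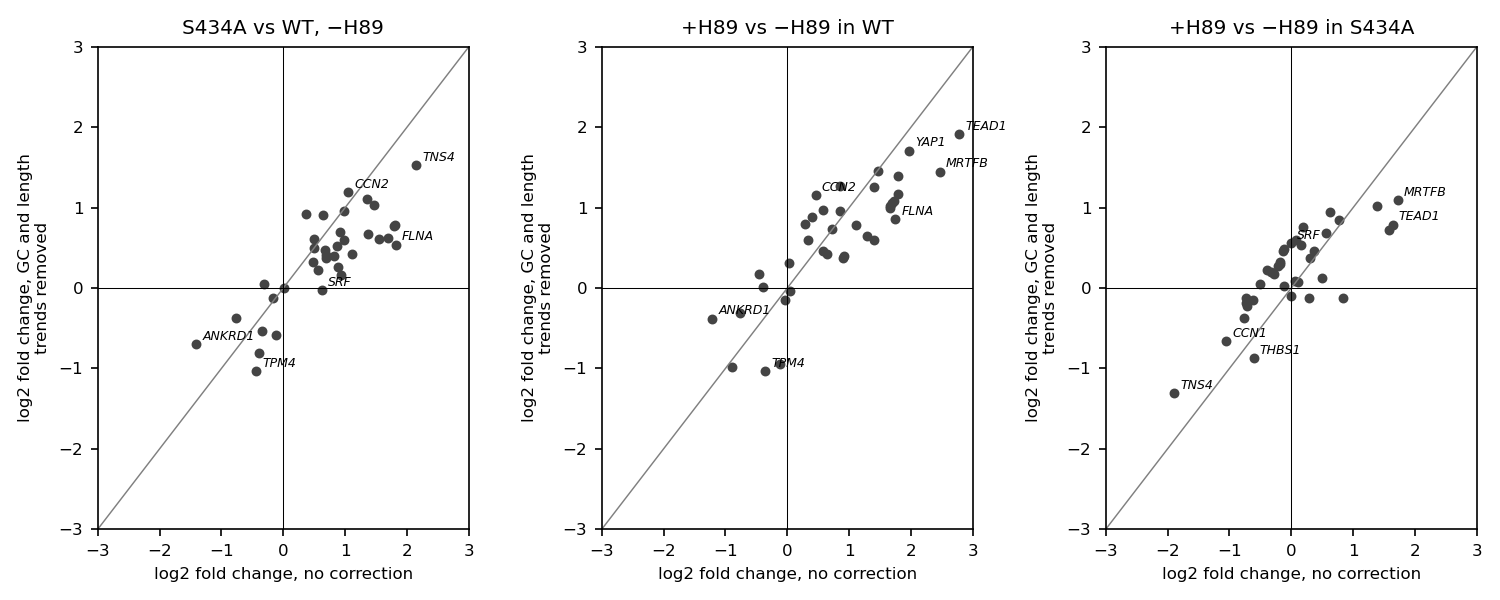
Log2 fold change of the 37 genes with the trends on GC content and length removed (vertical axes) against the value without correction (horizontal axes), for S434A against WT (both without H89), WT with against without H89, and S434A with against without H89. The grey line marks equal values; FLNA in the left panel is 0.54 with the trends removed and 1.82 without correction, CCN2 is 1.19 and 1.05, and TEAD1 in the middle panel is 1.92 and 2.78.

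Other genes of these pathways were followed in 3 lists, to be read against the shares of all genes past 2-fold: 11.6% rose and 11.3% fell in S434A against WT without H89, 22.2% and 15.8% with H89 in WT, and 15.2% and 2.35% with H89 in S434A. Of 17 tested Hippo kinases, adaptors and TEAD partners, 2 rose and 0 fell past 2-fold in S434A against WT without H89, 7 rose and 0 fell in WT upon H89, and 6 rose and 0 fell in S434A upon H89. The 2 rises in the genotype comparison are near the share over all genes. Their median log2 change was 0.29, 0.77 and 0.83. In the genotype comparison the kinase TAOK2 was 1.26 ± 0.15 (adjusted p = 2.97e-05) and TEAD3 was 1.21 ± 0.15 (adjusted p = 5.17e-05). With the trends on GC content and length removed TAOK2 was 0.07 (adjusted p = 0.567) and TEAD3 0.84. With H89 in WT, FRMD6, a FERM protein upstream of Hippo signalling, was 1.98 ± 0.22 (adjusted p = 1.11e-05) and the core kinase STK4 was 1.11 ± 0.10 (adjusted p = 3.37e-06). With H89 in S434A, FRMD6 was 1.62 ± 0.23 (adjusted p = 0.000401) and the kinase TAOK3 was 1.35 ± 0.26 (adjusted p = 0.00237). With the trends removed FRMD6 was 1.24 in WT and 0.56 in S434A, where it no longer passed (adjusted p = 0.0731), STK4 was 0.45 and TAOK3 0.89. FRMD6 itself had 2.45, 2.5 and 2.01 CPM in S434A with H89 and 0.484, 1.05 and 0.726 CPM in S434A without H89, and in WT it had 2.19, 2.57 and 2.87 CPM with H89 and 0.642, 0.693 and 0.592 CPM without H89, so that the libraries with H89 were all above those without it.

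Of 11 further YAP and TEAD targets tested, 6 rose and 0 fell in S434A against WT without H89, 8 rose and 1 fell in WT upon H89, and 3 rose and 1 fell in S434A upon H89, with medians of 1.04, 1.17 and 0.04. The phosphatase PTPN14, which restrains YAP, was 1.04 ± 0.13 (adjusted p = 5.79e-05) in the genotype comparison. PTPN14 was 2.07 ± 0.13 (adjusted p = 1.71e-07) and ASAP1, a GTPase-activating protein at focal adhesions, was 2.44 ± 0.19 (adjusted p = 6.14e-07) with H89 in WT. IGFBP3, a carrier of insulin-like growth factors, fell with H89 in S434A, at -1.87 ± 0.16 (adjusted p = 2.56e-05), and the ectonucleotidase NT5E rose by 1.32 ± 0.17 (adjusted p = 0.00028). With the trends removed PTPN14 was 0.55 in the genotype comparison and 1.06 with H89 in WT, ASAP1 was 1.93, IGFBP3 -1.56 and NT5E 1.27, all past the adjusted p. IGFBP3 had 45, 48.1 and 29 CPM in S434A with H89 and 148, 163 and 136 CPM in S434A without H89, and in WT it had 42.3, 40.6 and 48 CPM with H89 and 136, 140 and 135 CPM without H89. The libraries of IGFBP3 with H89 were all below those without it in both genotypes.

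Of 25 further actin-binding and SRF-target genes tested, 7 rose and 2 fell in S434A against WT without H89, 7 rose and 4 fell in WT upon H89, and 1 rose and 3 fell in S434A upon H89, with medians of 0.40, 0.48 and -0.29. For H89 in WT the share that fell is near that over all genes. The myosin light chain MYL6 fell in all 3 comparisons, with log2 changes of -1.38 ± 0.10 (adjusted p = 1.59e-06), -2.45 ± 0.11 (adjusted p = 1.13e-08) and -1.06 ± 0.10 (adjusted p = 4.78e-05). MYL6 had 243, 271 and 261 CPM in S434A with H89 and 483, 496 and 640 CPM in S434A without H89, and in WT it had 257, 237 and 274 CPM with H89 and 1387, 1460 and 1354 CPM without H89, with no overlap between S434A without H89, WT without H89 and the libraries with H89. Thymosin beta 4 (TMSB4X), which binds monomeric actin, was -2.44 ± 0.22 (adjusted p = 2.05e-06) with H89 in WT and -1.71 ± 0.23 (adjusted p = 0.000268) in S434A, and paxillin (PXN) was 1.20 ± 0.12 (adjusted p = 1.01e-05) in the genotype comparison. With the trends removed PXN was 0.22 (adjusted p = 0.132), MYL6 -1.50, -2.23 and -0.71 in the order above, and TMSB4X -1.57 and -1.09. TMSB4X was low, with 0.438, 0.696 and 0.483 CPM in S434A with H89 and 1.72, 1.72 and 1.87 CPM in S434A without H89. In WT, TMSB4X had 0.365, 0.548 and 0.424 CPM with H89 and 2.5, 1.99 and 2.85 CPM without H89. Its counts ran from 8 to 78 per library. MYL6 and TMSB4X have processed pseudogenes, so their counts are uncertain. In S434A against WT with H89, no gene of the 3 lists passed.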

How the data were processed

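RNA sequencing of HepG2 cells gave 12 libraries in 4 groups of 3, grouped by genotype and treatment per the labels. The deposited values are whole counts per gene. Per the file headers, featureCounts 2.0.1 counted read pairs over exons; the headers name an hg19 annotation and set no option for strand, multimapping or overlapping genes. Reads were aligned to hg19 by Bowtie 0.12.2, per the submitters' processing notes. Gene length is the authors' deposited exon length. No source used here gives the library kit or batches.

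Counts of all 12 libraries were fitted together by edgeR 4.0.16 under R 4.3.3. The fit used TMM factors, filterByExpr with a minimum count of 10, and robust quasi-likelihood tests adjusted by Benjamini-Hochberg over 14435 genes. A call needs a fold over 2 and an adjusted p under 0.05. The standard error is the log2 fold change divided by the square root of F. As alternatives, upper-quartile and RLE factors, limma-voom (limma 3.58.1) with and without quality weights, DESeq2 1.42.0, other filters, only the groups compared, a replicate block, splines (5 degrees of freedom) on GC content and length as offsets, and leaving out each library were tried. GC content, from the longest GENCODE transcript of another build, was known for 14280 genes tested. The steps were tested on simulated data: of 192 changed genes among 13839, 88% were recovered for S434A against WT without H89, with 5 unchanged genes called. Recovery was lower elsewhere, at 83.8% for H89 in WT and 87.3% for H89 in S434A. Between the genotypes under H89 it was 84.9%. Unchanged genes called numbered 4, 3 and 2 in these. The figures are not read as error rates for the real data, where spread differed between groups and changes partly followed GC content and length.

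The genes and lists were chosen with earlier results of these data known. Genes are described library by library where called in a comparison of 2 groups or where they define a role (CCN1, CCN2, ANKRD1, YAP1, WWTR1, TEAD1, SRF, MRTFA, MRTFB, ACTB and ACTG1), and of each other list up to 2 called genes with the smallest p per comparison. One list and 1 gene that this rule names are not reported here. The library totals given with the results set the counting precision, and p-values rest on the spread between replicates. That spread was fitted once per gene over all 4 groups, whose biological coefficients of variation ran from 0.0197 to 0.351. Standard errors and p-values thus do not measure the spread of the groups compared. They may be too small where S434A without H89 takes part and too large elsewhere.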

Additional observations from a re-analysis of the deposited data

Results flagged for a closer look

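The response to H89 differed between the genotypes for 29 of the 37 genes tested, by the test of the difference itself (edgeR, adjusted p under 0.05), with 24 negative and 5 positive where 24% and 24% of all genes passed. Values are the log2 change with H89 in S434A minus that in WT, and all of them rest on the S434A libraries without H89, which spread most. With H89 the log2 differences between S434A and WT were only -0.29 to 0.22. The values below therefore largely repeat the genotype comparison without H89 with its sign turned, and are no separate result.

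Among the YAP targets the difference was negative for CCN1 at -0.66, CCN2 at -1.19, AMOTL2 at -1.38, AXL at -1.35, LATS2 at -0.86 and THBS1 at -1.51. Among the regulators it was negative for WWTR1 at -0.84, SRF at -0.59 and MRTFA at -1.99. Of the actins and myosins it was negative for ACTB at -1.04, ACTG1 at -0.70, MYH9 at -2.00, MYH10 at -1.01 and MYL9 at -0.76. The crosslinkers had FLNA at -1.95, ACTN1 at -1.04 and ACTN4 at -1.03, and the focal adhesion genes had VCL at -1.01, TLN1 at -1.98, ZYX at -1.53, TNS3 at -1.56 and TNS4 at -1.94. The filament-coating genes with a negative difference were TPM2 at -0.66 and CNN2 at -0.84.

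The difference was positive for ANKRD1 at 1.51, MYL12A at 0.83, TPM1 at 0.61, TPM4 at 0.47 and FHL2 at 0.41. The call of ANKRD1 ended, at log2 values of 1.36 to 1.52, without replicate 2 of S434A with H89, S434A without H89 or WT with H89, or without replicate 3 of WT without H89. That of TNS4 ended, at -1.51, without WT replicate 2 with H89, and that of CCN1, at -0.57, without WT replicate 1 with H89. With the trends on GC content and length removed, FLNA was -0.56, MYH9 -0.89 and CCN2 -1.36. SRF (0.10), ANKRD1 (0.75), ACTN4 (-0.20), MYH10 (-0.55), LATS2 (-0.50), MYL9 (-0.43) and MYL12A (0.40) then no longer passed, at adjusted p values of 0.0621 to 0.604.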

How the results depend on the processing

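With GC and length trends removed, S434A against WT without H89 had 4 genes higher past 2-fold (11 as reported), H89 in S434A had 2 higher and 1 lower (4 and 2), and the difference of H89 effects had 2 positive and 5 negative (1 and 16). With the length trend alone removed, H89 in S434A had 1 lower, H89 in WT 2 lower and the difference 0 positive. H89 in WT also had 2 lower (1 as reported) with RLE factors, DESeq2, no filter or only the groups compared, and the difference had 0 positive with no filter. In the fit of only the groups compared, S434A against WT without H89 had 0 lower and 16 higher. The cause of these shifts was not tested. Shares of all genes past 2-fold were given only for the main fit and for that with GC and length trends removed. Counts under the other settings, including those below, are therefore not read as particular to the genes followed.

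Leaving out 1 library at a time, S434A against WT without H89 had 11 to 14 higher, H89 in WT 14 to 15 higher and 1 to 2 lower, H89 in S434A 3 to 4 higher, and the difference 11 to 16 negative and 0 to 2 positive.

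Signs that changed with the GC and length trends removed were, in S434A against WT without H89, CNN3 at 0.05 and SRF at -0.03, and, for H89 in WT, CCN1 at 0.01 and TAGLN2 at 0.18. For H89 in S434A, where the median over all genes also moved from 0.01 to 0.23, they were WWTR1 at -0.13, VCL at -0.12, FLNA at 0.30, ACTB at 0.33, ACTG1 at 0.48, MYH9 at 0.27, TAGLN2 at 0.23, CNN2 at 0.05, SRF at 0.56, TLN1 at 0.18 and ZYX at 0.46, and for the difference SRF at 0.10. With the length trend alone removed they were TAGLN2 at 0.13 for H89 in WT, and VCL at -0.16, TPM1 at -0.09 and TPM4 at -0.41 for H89 in S434A.

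The main fit did not pair libraries by replicate number. In no comparison did all 3 correlations of same-numbered deviations exceed 0.1. For H89 in S434A they were 0.309, 0.126 and 0.0481, and in the other comparisons they ran from -0.153 to 0.0866. With a replicate block the genes past 2-fold numbered 11 higher and 1 lower in S434A against WT without H89, 15 and 1 for H89 in WT, 4 and 2 for H89 in S434A, 0 and 0 in S434A against WT with H89, and 1 positive and 15 negative for the difference. The median over all genes for H89 in WT was 0.20 with TMM, 0.05 with RLE and 0.09 with upper-quartile factors, and for H89 in S434A it was 0.01, -0.08 and -0.11. Levels under about 1 CPM, as for TNS4 and for TMSB4X with H89, rest on few counts.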
